A study of Mus musculus with 18 samples.

Results

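Hormone production by the Leydig cell was followed here only as the RNA of 10 genes: Star, Cyp11a1, Cyp17a1, Hsd3b1, Hsd3b6, Hsd17b3, Insl3, Lhcgr, Nr5a1 and Srd5a1. They were chosen by name, as genes of steroid and peptide hormone production, and all 10 were found by their NCBI gene numbers among the 22657 genes of the deposited table. The samples were 18 testes cultures of ICR mice, an outbred strain, in 6 groups of 3. Groups A0, A10 and A50 came from mice that had received no busulfan, and their testes were cultured for 48 h with 0, 10 or 50 μg/mL of alginate oligosaccharides (AOS), short sugar chains cut from a brown algal polymer. Groups B0, BA10 and BA50 had the same 3 AOS levels, and their donors had been injected once at 3 weeks of age with busulfan, an alkylating drug that kills germ cells, at 40 μg/g body weight. All testes were taken 2 weeks after that injection, or at the same age from mice left uninjected, and all cultures shared DMEM/F12 medium with foetal bovine serum. The whole organ was cultured, so every value is a mixture of Leydig cells with germ, Sertoli, peritubular, immune and vessel cells. The methods describe several testes per treatment and repeated cultures without tying a sequenced sample to either. The labels number the samples of a group 1 to 3 without saying whether these were separate animals or cultures, so the p-values measure only the spread between these samples, which may be technical.

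Leydig cells lie between the seminiferous tubules. Luteinising hormone from the pituitary binds the receptor Lhcgr on them and raises cyclic AMP, and STAR, the product of Star, then moves cholesterol into the mitochondrion. There CYP11A1 cuts the side chain of cholesterol to give pregnenolone, which the HSD3B enzymes, CYP17A1 and HSD17B3 convert stepwise to testosterone. SRD5A1 reduces testosterone to dihydrotestosterone, an activity known from immature Leydig cells. Nr5a1 encodes SF-1, the nuclear receptor that switches on many of these genes and that Sertoli cells also make, and Insl3 encodes a peptide hormone by which Leydig cells guide the descent of the testis. A culture of this kind has no pituitary.

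In the GRCm38 annotation the 10 genes are all protein-coding. Star spans chr8:25806555-25815982 on the plus strand, Cyp11a1 chr9:58006411-58027023 on the plus strand, Cyp17a1 chr19:46667165-46673172 on the minus strand, and Nr5a1 chr2:38692656-38714542 on the minus strand. Hsd3b6 (chr3:98805504-98814443) and Hsd3b1 (chr3:98852194-98859794) are neighbours on the minus strand of one cluster of gene copies. Hsd17b3 (chr13:64058266-64089230), Srd5a1 (chr13:69573449-69611442) and Lhcgr (chr17:88716481-88791990) are on the minus strand. Insl3 (chr8:71689214-71690575, plus strand) lies within the annotated span of Jak3, a kinase gene on the same strand.

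The starts of 7 members were found in the RefSeq promoter windows of GRCm38.p6, which hold 250 bases before and 50 after a gene's start. Those of Hsd3b6 and Hsd3b1 are shown because these 2 gene copies differed in level and because only their windows held one of the motifs searched, a GATA site (AGATAA or its reverse complement TTATCT, both strands, in capitals), the kind of site bound by the factors GATA4 and GATA6. That of Insl3, the member with the highest median level, had no such site. Coordinates and strands are chr3:98814394-98814693 (minus), chr3:98859745-98860044 (minus) and chr8:71689002-71689301 (plus), and each sequence runs 5′ to 3′ along its gene.
Hsd3b6: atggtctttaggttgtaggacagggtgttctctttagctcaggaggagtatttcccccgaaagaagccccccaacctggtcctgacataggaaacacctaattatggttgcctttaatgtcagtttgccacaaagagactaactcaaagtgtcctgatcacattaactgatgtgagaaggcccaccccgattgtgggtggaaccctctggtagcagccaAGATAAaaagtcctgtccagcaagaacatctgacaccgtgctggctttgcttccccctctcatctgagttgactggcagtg
Hsd3b1: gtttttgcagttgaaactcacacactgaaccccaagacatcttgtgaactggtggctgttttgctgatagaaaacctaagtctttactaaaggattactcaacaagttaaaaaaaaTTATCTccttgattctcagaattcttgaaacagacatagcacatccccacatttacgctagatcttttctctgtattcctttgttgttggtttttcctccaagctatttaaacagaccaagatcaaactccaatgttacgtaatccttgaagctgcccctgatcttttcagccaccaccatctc
Insl3: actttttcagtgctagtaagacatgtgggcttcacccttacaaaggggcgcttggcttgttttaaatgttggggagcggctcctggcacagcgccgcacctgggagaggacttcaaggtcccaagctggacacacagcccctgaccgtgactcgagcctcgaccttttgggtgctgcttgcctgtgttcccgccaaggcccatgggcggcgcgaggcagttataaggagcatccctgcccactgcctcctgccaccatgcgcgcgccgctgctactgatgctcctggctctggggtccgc
The GATA site began 31 bases before the start of Hsd3b6 and 134 bases before that of Hsd3b1, and an alignment of both windows had identical bases in 166 of 336 columns (49.4%). Such a site was present in 11.2% of all 32851 windows of this length, and in 2 of the 8 member windows (Cyp11a1 has a pair of windows). The site of SF-1, CAAGGTCA, was in 1.56% of all windows and its core AAGGTCA in 4.72%, the cAMP response element TGACGTCA in 1.79% and the TATA box TATAAA in 13.6%, all searched on both strands, the core overlapping the longer SF-1 site. None of these letters was found in the 8 member windows.

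Reads of some members cannot be assigned with certainty. An annotated Jak3 transcript shares 404 of the 623 exon bases of Insl3 (64.8%), so how reads were split between them decides the value of Insl3, and the sources differ on which programs made the table. The table listed Jak3 at 3.70 to 10.99 FPKM (fragments scaled to transcript length and to the library's mapped fragments), and Insl3 was 39.4 to 138.5 times as high. Of all stretches of 50 bases in Hsd3b6, 16.0% also occur in other genes, mostly of its own family, against 4.86% in Hsd3b1. For Srd5a1, 16.5% occur in the overlapping Gm17108, and for Cyp11a1, 4.07% in Gm17322. Star, Cyp17a1, Hsd17b3, Lhcgr and Nr5a1 had no such stretch.

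In the whole table the sums of FPKM were 463970 to 511274 per sample, and read depth is unknown because no counts were used here. Spermatocyte genes, 12 of the first meiotic division, summed to 435 to 662 FPKM without busulfan and to 78.9 to 194 after it. Within groups the correlation of log2 values across genes, a comparison of libraries and not of replicates, was lowest for A10 replicate 3, at a mean of 0.935 against its group. This sample had the lowest Sertoli sum of the 18, 1802 FPKM, against 3700 to 7637 in the others. Fat cell genes (7) summed to 196 to 805 FPKM in B0 against 42.4 to 138 elsewhere, and 9 genes of simple epithelium and epididymis to 81.2 to 241 in B0 against 17.1 to 46.7. BA10 replicate 2 and BA50 replicate 2 had the lowest macrophage and endothelial sums and the highest Sertoli and spermatid sums of their groups.

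**Figure D1:**
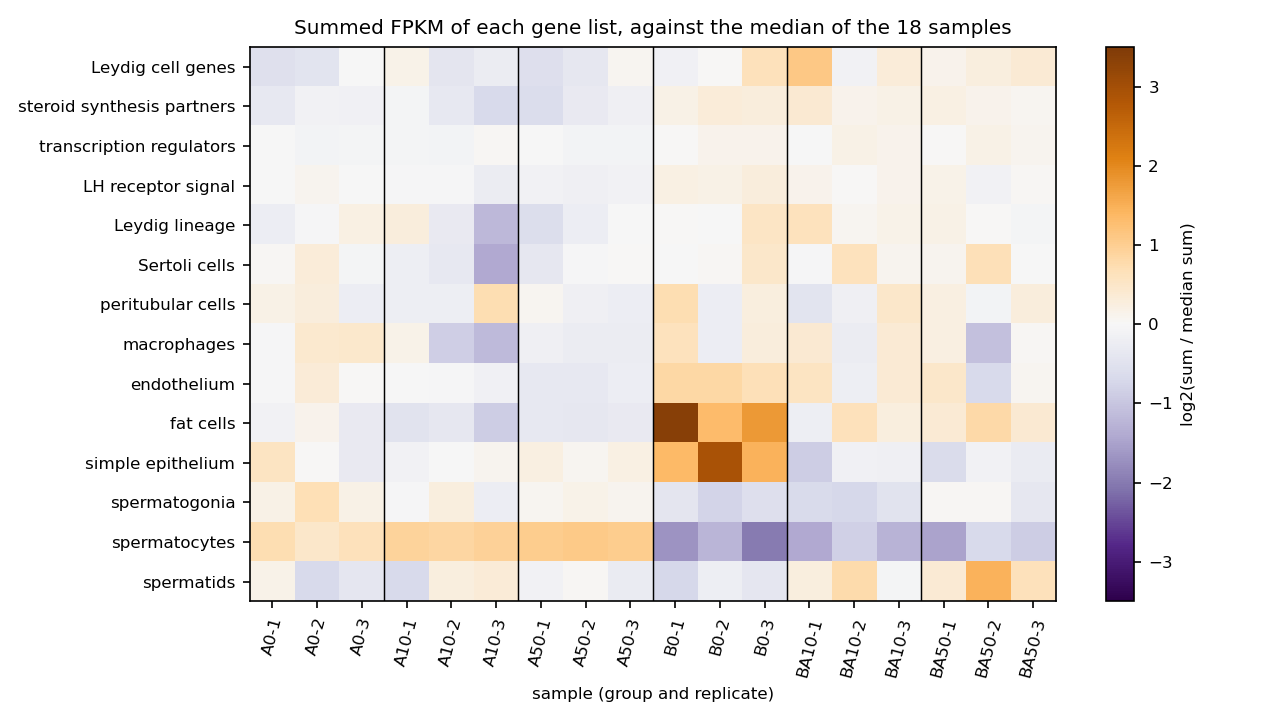
Summed FPKM of each gene list (rows) in each of the 18 samples (columns, by group and replicate), as log2 of the sum over its median across samples, with orange above and purple below. The spermatocyte row is orange in all 9 samples without busulfan and purple in all 9 after it, and fat cell and epithelial rows are darkest in the 3 B0 samples.

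The 10 genes spanned a wide range of levels, which FPKM lets one compare between genes because it is per length. Insl3 had the highest median over the 18 samples, 408 FPKM (lowest 233, highest 1011). Cyp11a1 followed with 312 (198 to 759) and Star with 238 (141 to 492). Insl3 was above Cyp11a1 in 15 of 18 samples and Cyp11a1 above Star in 15 of 18, while the ranges of these neighbours overlapped. These 3 genes made up 92.6% to 96.9% of the summed FPKM of the 10.

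Below them the order had clear steps. Nr5a1, with a median of 36.5 FPKM (18.6 to 46.6), was below Star and above Hsd3b1 in all 18 samples, and its range touched neither. Hsd3b1 had 8.90 (6.18 to 16.1), again apart from Cyp17a1 at 3.00 (1.38 to 4.16). From there on neighbours overlapped: Srd5a1 had 1.82 (1.01 to 2.81), Hsd3b6 1.28 (0.910 to 2.60), Hsd17b3 0.760 (0.280 to 1.83) and Lhcgr 0.600 (0.120 to 0.950), and each stood above the next in 13 or 14 of 18 samples. So the first step of steroid synthesis was abundant in these cultures, while the enzymes that finish testosterone and the receptor for luteinising hormone were listed near 1 FPKM. All 10 genes thus had values above 0 in all 18 samples, although 4 of 10 had medians under 2 FPKM and Lhcgr reached at most 0.950. Not all 10 are particular to Leydig cells, since Sertoli cells also make SF-1.

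Within each sample Cyp11a1 was 64.3 to 210 times Cyp17a1 (median 116), and 14.2 to 62.5 times Hsd3b1 (median 34.96). Hsd3b1 was above its gene copy Hsd3b6 in 18 of 18 samples, with a ratio of 2.78 to 14.45 and a median of 6.51. Hsd3b6 is the copy known from adult Leydig cells of the mouse. The share of its sequence that other copies hold, given above, limits how far this ratio can be read.

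**Figure D2:**
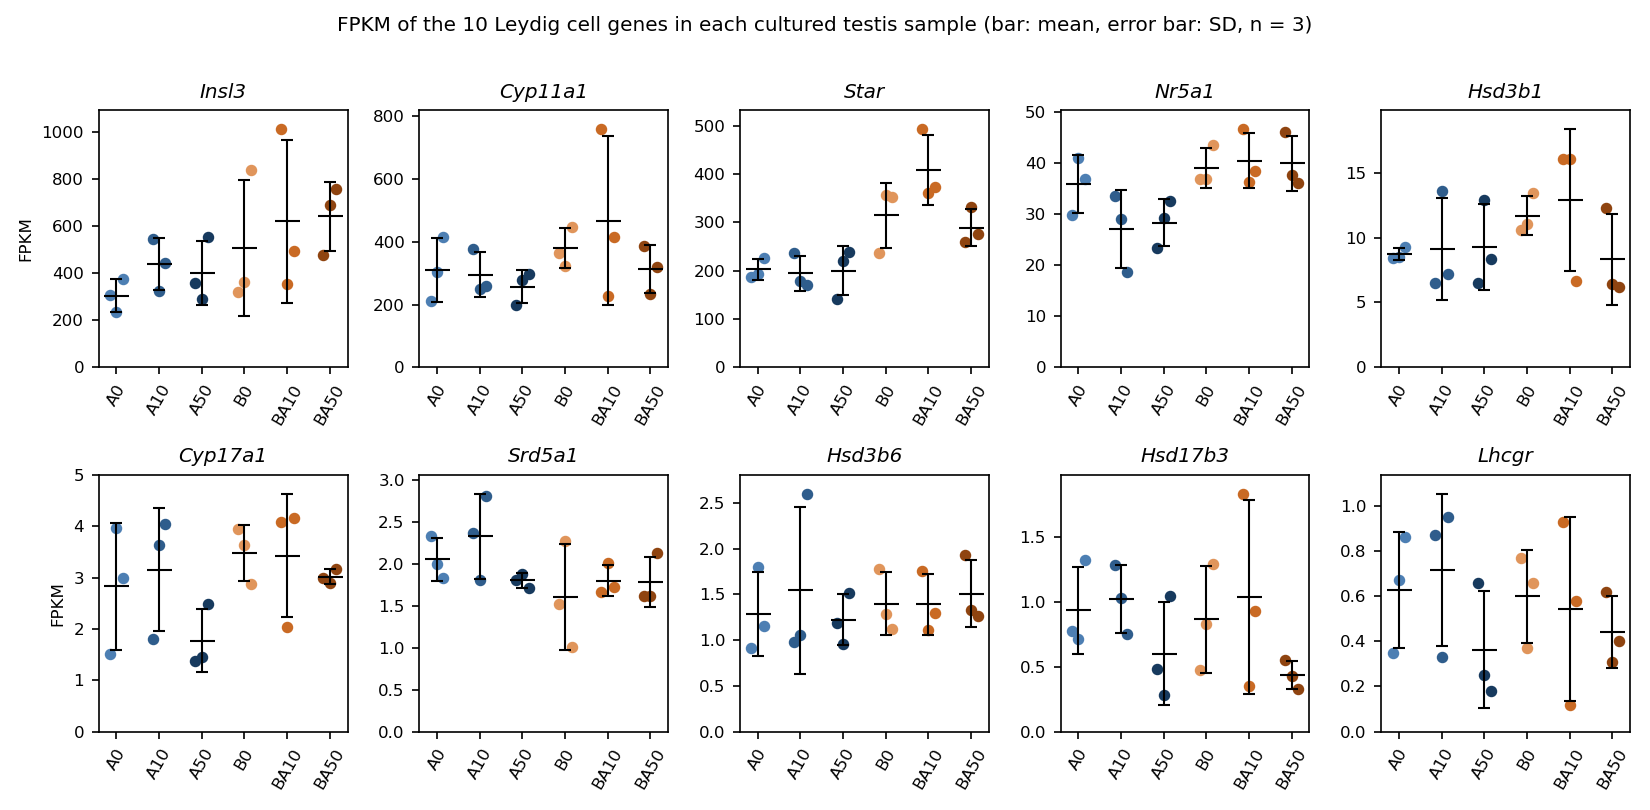
FPKM of each of the 10 genes (y axes from 0, one scale per gene) in the 3 samples of each group (points), with the mean and SD (n = 3). Star is between 141 and 238 FPKM without busulfan and between 237 and 492 after it, whereas for Hsd3b6, Hsd17b3, Srd5a1 and Lhcgr busulfan and other samples overlap at each AOS level.

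Busulfan was compared with no busulfan at each AOS level and as the mean of the 3 differences. Star and Nr5a1 were higher after busulfan over the 3 levels, and the other 7 members tested did not pass. Star rose 1.68-fold (95% interval 1.40 to 2.01) and Nr5a1 1.32-fold (1.12 to 1.56), both on the scale of FPKM + 1. Values were tested as log2(FPKM + 1) with limma across the 15790 genes at or above 1 FPKM in at least 3 samples, and a gene was called at a Benjamini-Hochberg adjusted p under 0.05. Lhcgr was below this filter, so 9 of 10 members were tested, and 2 of 9 were higher and 0 lower, where 13.3% of all genes tested were called higher and 24.8% lower. No member's busulfan samples lay wholly above or below the others over the 3 levels, as those of 0.513% and 9.66% of genes did. In total 38.1% of the genes tested were called in either direction.

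Star, whose product brings cholesterol to the first enzyme, measured 187, 193 and 227 FPKM in A0, 236, 178 and 170 in A10 and 141, 221 and 238 in A50. After busulfan it measured 237, 356 and 352 in B0, 492, 361 and 373 in BA10 and 258, 332 and 276 in BA50. All 3 samples of each busulfan group were above all 3 of the matching group without it, and over the arms only the lowest busulfan sample (B0 replicate 1) and the highest other sample (A50 replicate 3) were out of order. The log2 difference was 0.75 ± 0.12 (SE; limma adjusted p = 0.000205). By the exact two-sided permutation test within AOS levels p was 0.00025, the smallest that its 8000 divisions allow.

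At single AOS levels Star differed by a log2 of 0.62 ± 0.21 without AOS (limma adjusted p = 0.0732), by 1.07 ± 0.21 at 10 μg/mL (adjusted p = 0.00227) and by 0.55 ± 0.21 at 50 μg/mL (adjusted p = 0.0853). The last of these was 0.32 (adjusted p = 0.346) without A50 replicate 1, its lowest sample, and the difference without AOS passed without A50 replicate 1 (adjusted p = 0.0410) or B0 replicate 1 (0.81, adjusted p = 0.0293). With all libraries only the middle level passed at the threshold, a difference of 2.10-fold (1.53 to 2.88). The test of whether the AOS changes differed with busulfan is given with the AOS comparisons. With 3 against 3 samples the exact test cannot go below 0.1, the value it gave at all 3 levels.

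Nr5a1, the gene of SF-1, measured 29.9, 41.1 and 36.8 FPKM in A0, 33.6, 29.0 and 18.6 in A10 and 23.3, 29.2 and 32.5 in A50. After busulfan it measured 36.8, 36.8 and 43.5 in B0, 46.6, 36.3 and 38.5 in BA10 and 46.0, 37.7 and 36.0 in BA50. The busulfan samples lay within a narrow band, and the others spread below and into it: A0 overlapped with B0, while A10 and A50 were wholly below BA10 and BA50. The log2 difference over the 3 levels was 0.40 ± 0.11 (limma adjusted p = 0.0106; exact permutation p = 0.0025).

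By AOS level the Nr5a1 difference was 0.13 ± 0.19 without AOS (limma adjusted p = 0.770), 0.59 ± 0.19 at 10 μg/mL (adjusted p = 0.0440) and 0.48 ± 0.19 at 50 μg/mL (adjusted p = 0.0954). The call at 10 μg/mL was lost without any one of 10 libraries (limma adjusted p = 0.0512 to 0.202). Some of these were outside both groups, in A0, A50, B0 and BA50. Without A10 replicate 3, the sample with the lowest Nr5a1 value and the lowest Sertoli sum, the log2 difference was 0.36 and the adjusted p 0.202, and without BA10 replicate 1 they were 0.49 and 0.163.

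SF-1 is made by Sertoli cells too. Their list had a median of 0.30 over the 3 levels, against 0.01 for all genes tested. Of its 12 genes 2 were called higher and 0 lower, against 13.3% and 24.8% of all genes. The called ones were Ctsl, a lysosomal protease, and Trf, the iron carrier transferrin. By AOS level the Sertoli median was -0.10, 0.57 and 0.12 at 0, 10 and 50 μg/mL, the middle level being the one with A10 replicate 3, while the members had 0.28, 0.39 and 0.27. When each sample was centred on its Sertoli list, which moved the median of all genes to -0.20, the Nr5a1 difference was 0.19 (adjusted p = 0.398) and that of Star 0.53 (adjusted p = 0.0364). FPKM are shares of a library, so a fall of spermatocyte RNA can raise the share of other RNA. Its part in the differences of Star and Nr5a1 was not tested. In whole testes fewer cells of a type and less RNA per cell cannot be told apart. The 9 members tested had a median log2 difference of 0.31 over the 3 levels, the 12 spermatocyte genes one of -2.47, with 12 of 12 lower.

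Insl3 was the most variable of the abundant members. It measured 307, 233 and 373 FPKM in A0, 546, 326 and 442 in A10 and 359, 291 and 552 in A50, and after busulfan 318, 361 and 840 in B0, 1011, 354 and 496 in BA10 and 477, 691 and 755 in BA50. The groups overlapped at every AOS level, and the 4 highest of the 18 samples were busulfan samples, at least 1 from each of the 3 groups. Its log2 difference was 0.57 ± 0.24 (limma adjusted p = 0.0705), which missed the threshold, and the exact permutation p was 0.0315. Without BA10 replicate 2 the adjusted p was 0.0310, without B0 replicate 1 0.0468 and without A50 replicate 3 0.0486. In the other 15 of 18 fits without a single library Insl3 was not called. Across all 18 the log2 difference was 0.42 to 0.68, with an adjusted p of up to 0.138. Centred on the Sertoli list, it was 0.36 with an adjusted p of 0.406.

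Cyp11a1, the side-chain cleavage enzyme, measured 212.5, 305 and 417 FPKM in A0, 377, 249.4 and 260 in A10 and 198, 277 and 297 in A50. After busulfan it measured 365, 324 and 449 in B0, 759, 228 and 414 in BA10 and 388, 233 and 319 in BA50. In BA10 the highest and lowest of these 3 samples differed more than the groups did. The difference was 0.37 ± 0.21 (limma adjusted p = 0.173; exact permutation p = 0.0978), and without BA10 replicate 2 it was 0.52 with an adjusted p of 0.0319. Without BA10 replicate 1, the highest sample, it was 0.23 with an adjusted p of 0.335.

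The later enzymes did not pass. Cyp17a1 had a log2 difference of 0.31 ± 0.16 over the 3 levels (limma adjusted p = 0.138). Its largest was at 50 μg/mL AOS, where A50 measured 1.38, 1.45 and 2.48 FPKM and BA50 2.99, 2.89 and 3.17 without overlap, a difference of 0.56 ± 0.28 (adjusted p = 0.178). Hsd3b1 had 0.22 ± 0.20 (adjusted p = 0.394) and was apart only in B0, with 10.6, 11.1 and 13.45 FPKM against 8.44, 8.5 and 9.30 in A0. Hsd3b6 had 0.07 ± 0.13 (adjusted p = 0.700), Hsd17b3 -0.08 ± 0.14 (adjusted p = 0.691) and Srd5a1 -0.17 ± 0.09 (adjusted p = 0.159). Without B0 replicate 2 Srd5a1 passed as lower, at -0.23 (adjusted p = 0.0379).

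Their intervals bound what could have gone unseen. In folds of FPKM + 1 they ran from 0.980 to 1.57 for Cyp17a1, from 0.872 to 1.56 for Hsd3b1, from 0.868 to 1.27 for Hsd3b6, from 0.764 to 1.17 for Hsd17b3 and from 0.775 to 1.02 for Srd5a1. At levels near 1 FPKM the added 1 pulls folds towards 1. Lhcgr, the receptor of luteinising hormone, had a lowest, median and highest value of 0.180, 0.660 and 0.950 FPKM without busulfan and 0.120, 0.580 and 0.930 after it, with an exact permutation p of 0.791.

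**Figure D3:**
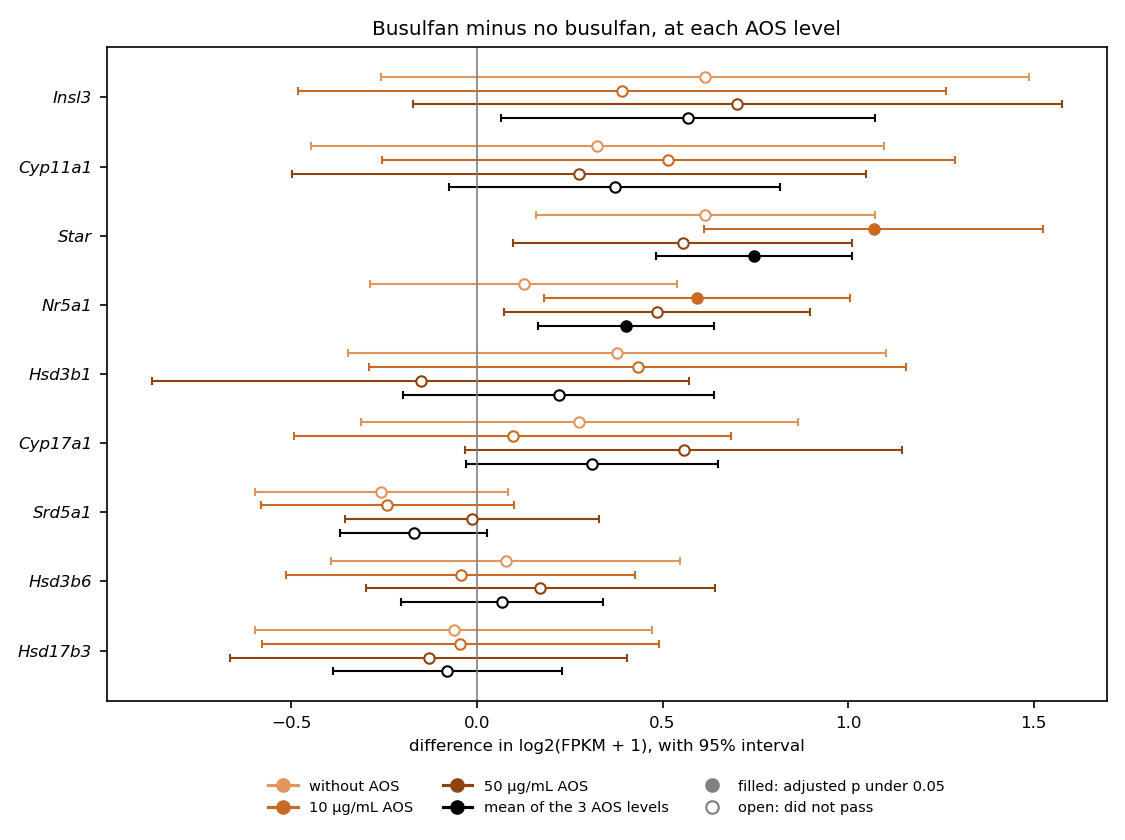
Difference in log2(FPKM + 1) between busulfan and no busulfan for the 9 members tested (rows), at each AOS level (browns) and as their mean (black), with 95% intervals from limma; filled points passed an adjusted p under 0.05. The mean differences of Star (0.75) and Nr5a1 (0.40) and those at 10 μg/mL AOS are the filled ones.

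Counted by group, busulfan samples lay wholly above the others for Star and Hsd3b1 at no AOS, for Star and Nr5a1 at 10 μg/mL and for Star, Cyp17a1 and Nr5a1 at 50 μg/mL. No member lay wholly below. These are 2, 2 and 3 of 10 members, where 10.5%, 11% and 16% of all genes tested lay wholly above and 22.7%, 20.2% and 25.7% wholly below. By limma 0 of 9 members were called without AOS (13.8% of all genes were called in either direction, 1.47% higher), 2 higher at 10 μg/mL (18.9% and 3.74%) and 0 at 50 μg/mL (19.9% and 3.7%). At an unadjusted p under 0.05 the 3 numbers were 1, 2 and 2, made up of Star throughout and Nr5a1 at both doses, where 24.9%, 32.9% and 32.4% of all genes tested were under it.

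Other genes of the pathway were taken from lists. Of 12 tested partners of steroid synthesis (15 listed), 6 were higher over the 3 AOS levels and 0 lower. Of all genes tested 13.3% were called higher and 24.8% lower. The list median was 0.32 against 0.01 for all genes. Cyb5a, the cytochrome b5 that helps CYP17A1 in its lyase step, rose most, with no overlap between the arms (117 to 251 FPKM against 290 to 414). Its log2 difference over the 3 levels was 0.78 ± 0.13 (limma adjusted p = 0.000255). Without AOS it measured 231 ± 22.6 FPKM (SD, n = 3) in A0 and 360.5 ± 47.3 in B0, a difference that was not called. Por, which passes electrons to CYP17A1 and the other microsomal cytochromes, had 0.59 ± 0.14 (adjusted p = 0.00493), and Fdxr, which feeds electrons towards CYP11A1, 0.49 ± 0.12 (adjusted p = 0.00404).

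Tspo, a protein of the outer mitochondrial membrane, had a log2 difference of 0.53 ± 0.12 (limma adjusted p = 0.00221) and Hsd17b12, a reductase of fatty acid and steroid metabolism, 0.33 ± 0.09 (adjusted p = 0.00802). Fdx1, the electron carrier to CYP11A1, passed too (0.32 ± 0.12, adjusted p = 0.0454). All of these partners are also used by other cells. With each sample centred on the Sertoli list Cyb5a was still called (0.56), while Por, Tspo, Fdxr and Hsd17b12 had adjusted p-values of 0.214 to 0.638. Without the A0 and B0 groups Por and Hsd17b12 lost theirs (adjusted p = 0.0957 and 0.0658).

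The family of HSD3B copies beyond Hsd3b1 and Hsd3b6 was listed near 0 but for one. Hsd3b2, Hsd3b3, Hsd3b4 and Hsd3b5 had at most 0.14 FPKM in any sample, and only Hsd3b7, a liver and bile acid enzyme, could be tested, at a median of 16.8 FPKM and a log2 difference of 0.33 ± 0.11 (limma adjusted p = 0.0261). Its adjusted p was 0.650 centred on the Sertoli list, 0.0684 rescaled to an equal sum, 0.114 without the A0 and B0 groups and 0.0511 to 0.0524 without A0 replicate 1, BA50 replicate 1 or BA50 replicate 3. The list of genes of the adrenal cortex, another steroid-producing tissue, was low, and only 1 of its 4 genes, Cyp11b1, could be tested. Cyp11b1, which makes corticosterone, measured 1.22 to 7.64 FPKM and was above Cyp17a1 in 9 of 18 samples, with a ratio to it of 0.460 to 3.06. Cyp21a1 stayed at or below 0.210 FPKM, Cyp11b2 at or below 0.0600 and Mc2r at or below 0.470. Cyp11b1 did not differ past the threshold after busulfan (0.09 ± 0.27, adjusted p = 0.828).

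Of 11 transcription regulators tested, 3 were higher and 0 lower over the 3 levels, against 13.3% and 24.8% of all genes. The list median was 0.20. Nr0b2, the receptor SHP that represses steroidogenic genes, rose by 0.68 ± 0.16 (limma adjusted p = 0.00333) at a level of 0.360 to 3.41 FPKM without busulfan and 3.22 to 5.22 after it. Nr4a1, an early response factor of Leydig cells, had 0.35 ± 0.12 (adjusted p = 0.0284) and Gata4, found in Leydig and Sertoli cells, 0.31 ± 0.08 (adjusted p = 0.00706). The call of Nr4a1 was lost without any one of 7 libraries (adjusted p = 0.0504 to 0.0584) and without the A0 and B0 groups (adjusted p = 0.132). Centred on the Sertoli list, Nr4a1 and Gata4 had adjusted p-values of 0.735 and 0.624, and Nr0b2 was still called.

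Among the 10 genes for signals at and below the receptor, 3 were higher and 1 lower, against 13.3% and 24.8% of all genes. The list median was 0.03. The gene that fell was Pde8a, a phosphodiesterase that breaks down cyclic AMP in Leydig cells: it measured 23.4 to 42.2 FPKM (median 34.7) without busulfan and 15.8 to 24.4 (median 21.3) after it. Its log2 difference was -0.73 ± 0.08 (limma adjusted p = 4.789e-06), and it was called at each of the 3 AOS levels. Gnas, the stimulatory G protein, had 0.34 ± 0.06 (adjusted p = 0.000417), Pde4b, another phosphodiesterase, 0.28 ± 0.09 (adjusted p = 0.0167) and Insr, the insulin receptor, 0.24 ± 0.09 (adjusted p = 0.0406). All 3 missed the threshold when centred on the Sertoli list (adjusted p = 0.671 to 0.943), Pde4b and Insr also without the A0 and B0 groups, and Insr without any one of 13 libraries (adjusted p = 0.0533 to 0.0810). Germ cell genes moved in the same samples as Pde8a, and their part in its change was not tested.

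Of 11 tested genes of the Leydig lineage and its niche, 3 were higher and 0 lower, against 13.3% and 24.8% of all genes. The list median was 0.15. Pdgfa, a growth factor from the tubules that draws out Leydig progenitors, had 0.59 ± 0.07 (limma adjusted p = 1.101e-05) at 16.7 to 26.2 FPKM without busulfan and 24.02 to 34.05 after it. Inha, the inhibin subunit made by Sertoli and Leydig cells, had 0.48 ± 0.15 (adjusted p = 0.0247) and Thbs2, an extracellular matrix protein, 0.60 ± 0.22 (adjusted p = 0.0390). Thbs2 lost its call without the A0 and B0 groups (adjusted p = 0.251) and without any one of 11 libraries (adjusted p = 0.0504 to 0.0801), and Inha without B0 replicate 3 (adjusted p = 0.0518). Centred on the Sertoli list the adjusted p-values of Pdgfa, Inha and Thbs2 were 0.0983, 0.250 and 0.372. The 4 androgen-responsive genes of Sertoli cells had no call in any comparison, with a median of 0.03.

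**Figure D4:**
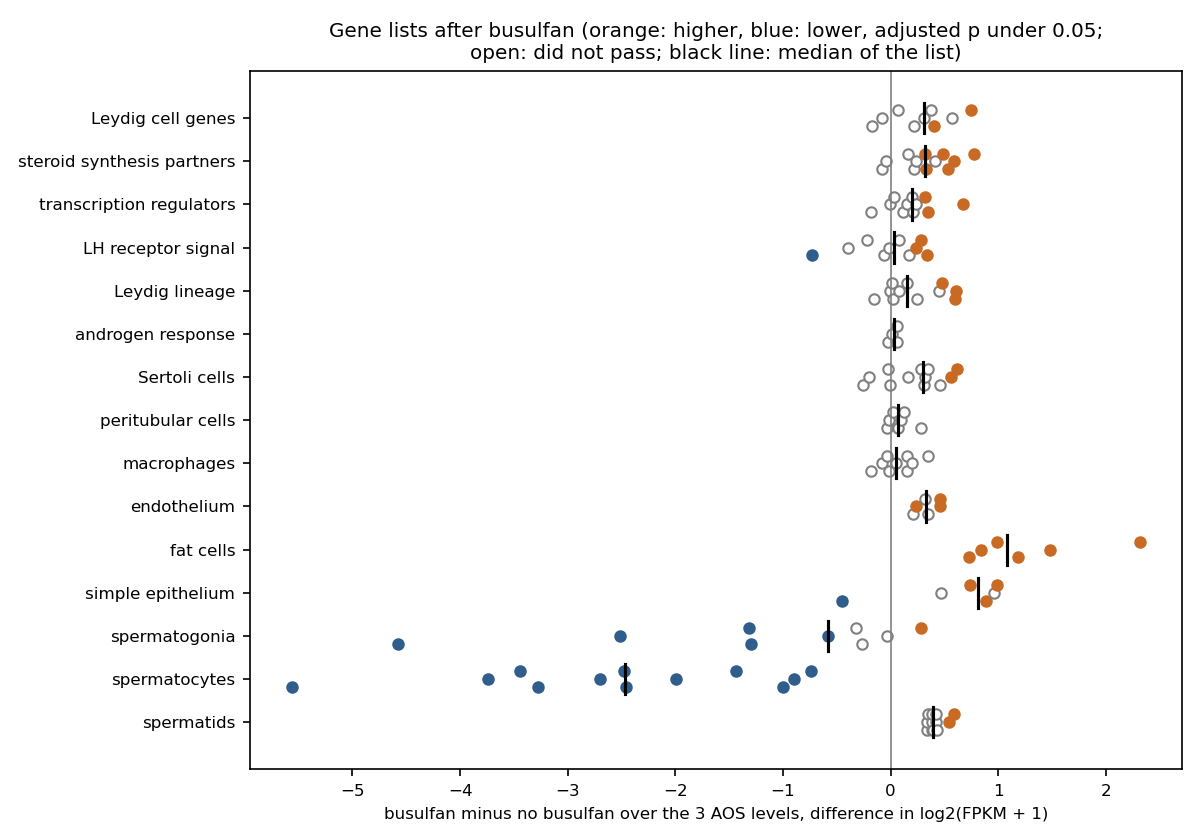
Difference in log2(FPKM + 1) between busulfan and no busulfan over the 3 AOS levels, for each tested gene of each list (points; orange higher, blue lower, open not past an adjusted p under 0.05), with list medians as black lines. The medians of the Leydig cell genes (0.31) and their partners (0.32) are near that of Sertoli genes (0.30), and the spermatocyte genes reach -5.56.

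Other cell types did not all move alike over the 3 AOS levels, where 13.3% of all genes tested were called higher and 24.8% lower. Endothelial genes had 3 of 6 called higher and a median of 0.33, and spermatid genes 2 of 12 higher (Prm3 and Tssk6) and 0 lower, at 0.39. Macrophage and peritubular genes had 0 of 9 and 0 of 7 called, at 0.05 and 0.06. Fat cell genes had 6 of 6 higher, at 1.09, and simple epithelium genes 3 of 6 higher and 1 lower, at 0.81. Both were led by the B0 samples, and at 10 and 50 μg/mL AOS each list had 0 genes called. Endothelial sums were highest in B0 too, at 96.7 to 107.4 FPKM against 37.01 to 89.3 elsewhere. At 0, 10 and 50 μg/mL AOS the endothelial median was 0.55, 0.29 and 0.07, with 0 genes called at each. The spermatid median was -0.09, 0.37 and 0.93, with Prm3 and Tssk6 called only at 50 μg/mL. Star and Nr5a1 stayed called when the A0 and B0 groups were left out, at 0.81 (limma adjusted p = 0.00242) and 0.54 (adjusted p = 0.0189). Without BA10 replicate 2 and BA50 replicate 2 together, an alternative chosen after seeing the data like that without A0 and B0, 4 of 9 members were called: Star, Nr5a1, Insl3 and Cyp11a1. In that fit 16.6% of all genes were called higher and 25.3% lower. Across all genes the share of calls that were higher, 34.85%, depended on the scaling and was 51.5% with quantile normalization, 45.9% with upper quartile scaling, 23.8% after rescaling to an equal sum and 2.24% centred on the Sertoli list.

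AOS was compared with no AOS within each arm, a question of whether the sugar chains act on the cultured testis itself. No member was called in any of the 4 comparisons: 0 of 9 for A10 and A50 against A0, where 0% of all genes were called, 0 of 9 for BA10 against B0 (0.0253%) and 0 of 9 for BA50 against B0 (0.095%, of which 0.00633% higher and 0.0887% lower). At an unadjusted p under 0.05 in limma the counts were 1, 0, 0 and 0, against 15.2%, 15.7%, 5.05% and 24.3% of all genes tested. The replicate numbers paired B0 with BA50 by their deviations, and with that number as a block 0 members and 4 genes in all were called for BA50 against B0, in place of 15. The 2 comparisons within an arm share their control samples. The one member under that limit was Nr5a1 in A10 against A0, with 27.1 ± 7.65 FPKM (SD, n = 3) against 35.9 ± 5.63 and a log2 difference of -0.42 ± 0.19 (adjusted p = 0.324), the comparison that holds A10 replicate 3.

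Star had close means in the 3 groups without busulfan, 202 ± 21.4, 195 ± 35.8 and 200 ± 51.7 FPKM (SD, n = 3) in A0, A10 and A50. Its log2 differences of -0.07 and -0.05 had 95% intervals of -0.52 to 0.39 and -0.50 to 0.41. After busulfan the means were 315 ± 67.6, 409 ± 72.5 and 289 ± 38.6 FPKM. All 3 BA10 samples were above all 3 B0 samples, as was so for 3.64% of all genes, with a log2 difference of 0.39 ± 0.21 (limma adjusted p = 0.749; exact permutation p = 0.1, the smallest possible). No other member was wholly above or below in any AOS comparison, where 7.81%, 17.6%, 3.64% and 11.2% of genes were above and 12.2%, 23.2%, 7.75% and 13.5% below in A10 and A50 against A0 and BA10 and BA50 against B0.

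Insl3 had higher means in every AOS group than in its control. They were 305 ± 70.0, 438 ± 110 and 401 ± 136 FPKM in A0, A10 and A50, and 506 ± 290, 620 ± 346 and 641 ± 146 in B0, BA10 and BA50. The samples overlapped in all 4 comparisons, with log2 differences of 0.52, 0.37, 0.29 and 0.46, each with an SE of 0.41. Over both doses and both arms the difference was 0.41 ± 0.25 (limma adjusted p = 0.238), from 0.92-fold to 1.92-fold. Without B0 replicate 3, the highest B0 sample, it was 0.63, and without B0 replicate 1 it was 0.28. Cyp11a1 had -0.11 ± 0.22 in the same comparison and Cyp17a1 -0.13 ± 0.17.

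Over both doses and both arms 0 of 9 members were called (0.0443% of all genes, 0.00633% higher and 0.038% lower) and 0 had an unadjusted p under 0.05, as 33.5% of all genes tested did. The 9 log2 differences ran from -0.17 for Nr5a1 to 0.41 for Insl3, with a median of -0.11 against -0.06 for all genes. B0, the control of both AOS groups after busulfan, held the fat cell and epithelial signal described above, and the epithelial keratins Krt7, Krt8 and Krt18 fell by limma in both comparisons with it. Its part in the AOS values after busulfan was not tested.

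Whether the AOS change differed between arms was tested as a difference of differences. No member passed at 10 or 50 μg/mL (0 of 9 each by limma, 0% of all genes, 0 at an unadjusted p under 0.05). For Star the difference was 0.45 ± 0.30 at 10 μg/mL and -0.06 ± 0.30 at 50 μg/mL, with 95% intervals of -0.19 to 1.10 and -0.71 to 0.58. For Nr5a1 it was 0.47 ± 0.27 and 0.36 ± 0.27. In folds Star's interval at 10 μg/mL ran from 0.876 to 2.14.

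**Figure D5:**
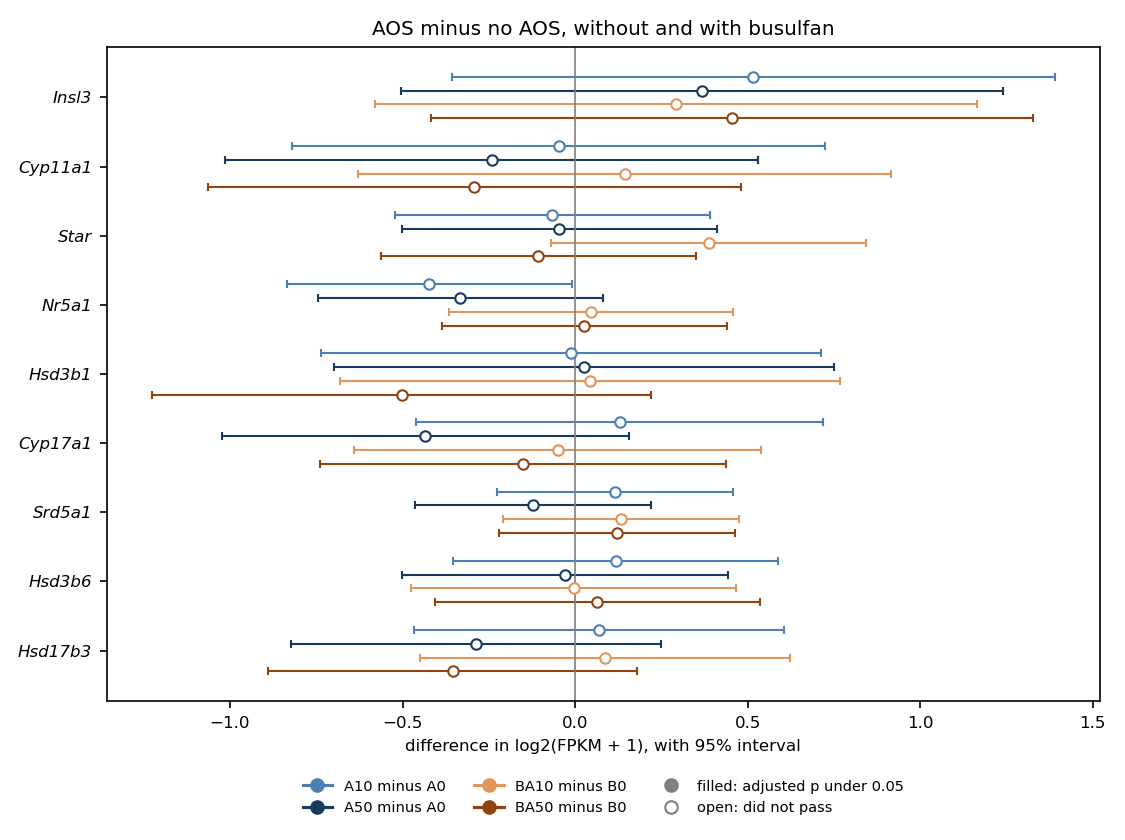
Difference in log2(FPKM + 1) between AOS and no AOS for the 9 members tested (rows), in the 4 comparisons without (blues) and with busulfan (oranges), with 95% intervals from limma. All points are open, since none passed an adjusted p under 0.05, and the 4 points of Insl3 are all to the right of 0.

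The members varied unequally within groups. BA10 replicate 1 had the highest value of the 18 samples for 6 of 10 members (Star, Cyp11a1, Hsd3b1, Hsd17b3, Insl3 and Nr5a1), and A50 replicate 1 the lowest for 3 (Star, Cyp11a1 and Cyp17a1). As a description over 18 samples, the deviations of Cyp11a1 from its group means had a Pearson r of 0.88 with the mean standardised deviation of the other 9 members, those of Hsd17b3 0.73 and those of Insl3 0.51. Hsd3b1 had -0.02 and Srd5a1 -0.43. These points share libraries, so depth and tissue makeup enter every r, and at under 3 FPKM counting error does too.

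By the same measure the gene most like the 10 members, among 10674 with a mean of at least 5 FPKM, was Por, with an r of 0.93 over the 18 samples and values of 38.8 to 122 FPKM. Sc5d, an enzyme of cholesterol synthesis, followed at 0.90 (16.6 to 79.2 FPKM), and among the next were Ptpn2 (0.88), Paxx (0.86), Aacs (0.85), Fdx1 (0.85) and Mt1 (0.85). Both Por and Fdx1 stood on the list of partners. After busulfan Sc5d did not pass, with a log2 difference of 0.11 (limma adjusted p = 0.729).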

How the data were processed

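RNA of 18 samples of cultured mouse testes was sequenced by the authors, who deposited 1 table of FPKM values per gene and sample. The submitters' processing notes name HISAT, Bowtie2, RSEM and GRCm38.p5, without roles or versions, whereas the study's supplementary methods name SOAPaligner and RPKM, so which of them made the values is open. Read counts were not used here, so depth is unknown, and FPKM are shares of a library that move when other genes do. NCBI gene numbers were matched to symbols for 20656 of 20811 numbered genes, and 0 sample columns were left unmapped.

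Values were tested as log2(FPKM + 1) with limma 3.58.1 (R 4.3.3), with 1 coefficient for each of the 6 groups, a mean-variance trend in the spread and Benjamini-Hochberg adjustment over all 15790 genes at or above 1 FPKM in at least 3 samples. Genes were called at an adjusted p under 0.05. The comparisons were busulfan against none at each AOS level and over all levels, AOS against none within each arm and over both, and the difference between arms. Same-numbered samples of B0 and BA50 deviated together (r = 0.56, 0.42 and 0.14), which no label states a reason for; no other comparison had r over 0.1 in every pair. Exact two-sided permutation tests used all 20 divisions of 3 against 3 samples or 8000 divisions within AOS levels (SciPy 1.17.1). On simulated data made for busulfan over the 3 AOS levels with 15790 genes, 128, 178 and 199 of 200 genes changed by a log2 of 0.5, 1 and 2 were called. Of the unchanged genes 8, 8 and 14 were called. Only 200 genes were changed there, whereas 38.1% of genes were called in the data, so these counts do not give the power in the data.

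Lists of partners, regulators and cell type markers were fixed beside the 10 members; the members and lists were chosen with earlier results of these data known. Of each list up to 5 called genes, the largest in the pooled busulfan difference, are named, all 4 adrenal genes, and the 8 genes of mean at least 5 FPKM whose deviations were most like the members', of which 1 is not reported here. Positions came from GENCODE vM21 and promoter windows from RefSeq. Alternatives changed the pseudocount, filter, scaling, spread, samples, replicate block and threshold.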

Additional observations from a re-analysis of the deposited data

How the results depend on the processing

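Star kept its direction and its call over the 3 AOS levels in every refit tried at the main threshold, at 0.53 to 0.81 on the log2 scale, and so did Nr5a1 except when centred on the Sertoli list (0.19, adjusted p = 0.398). Over the 3 levels 2 members were called, and the count was 1 centred on the Sertoli list, 0 at an adjusted p of at most 0.001 with a log2 change of at least 1, 4 without BA10 replicate 2 and BA50 replicate 2 together, and 2 to 4 without single libraries, the 4 without BA10 replicate 2. At 10 μg/mL AOS, against 2 in the fit reported, it was 1 with no filter, rescaled to an equal sum, with only the groups compared or without those libraries together, 0 centred on the Sertoli list (Star 0.48, adjusted p = 0.22, with the median of all genes at -0.56) or at the stricter threshold, and 1 to 2 without single libraries. Without AOS and at 50 μg/mL, both 0 as reported, it was 1 and 2 at an adjusted p of at most 0.1, and 0 to 1 without single libraries (1 without A50 replicate 1 or B0 replicate 1, and 1 without A10 replicate 3). All AOS comparisons had 0 members called throughout. Signs turned for Hsd3b6 after busulfan centred on the Sertoli list (-0.15), for Hsd17b3 with quantile normalization (0.086) or without those libraries together (0.0092; -0.17 to 0.0085 without single ones), and for Nr5a1 under AOS over both doses centred on the Sertoli list (0.14). The causes were not tested. Deviations of same-numbered samples had r over 0.1 in all 3 pairs of B0 with BA50, but in 9 of 21 pairs over all comparisons (-0.43 to 0.56), and 6 of 18 samples were most like their own number. With the number as a replicate block 1 member was called at 10 μg/mL AOS and 3 over the 3 levels, where Insl3 passed (adjusted p = 0.0455); no other count of members changed. Insl3 under AOS over both doses was 0.28 to 0.63 without single libraries and 0.72 centred on the Sertoli list. Across all genes the calls for busulfan over the 3 levels ran from 570 to 7370 and those for AOS over both doses from 0 to 2742. With no read counts, depth sets no stated limit; genes near 1 FPKM have the least certain values.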

Other observations

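The balance of the first steps of steroid synthesis differed among samples. The ratio of Star to Cyp11a1, in FPKM within a sample, had a median of 0.713 (0.544 to 0.881) without busulfan and 0.865 (0.649 to 1.59) after it, and was above 1 in 3 of 18 samples. This ratio was chosen after its values were seen and was not tested. Within groups, Nr5a1 and Srd5a1 had the smallest median coefficient of variation of the 10 members, 14.6% each, and Lhcgr, the lowest gene, the largest, 44.1%.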
